A study of Mus musculus with 6 samples.

Results

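Fatty acid uptake and beta-oxidation are represented here by 10 listed genes, CD36, FABP3, CPT1A, CPT2, ACADL, ACADM, ACADVL, HADHA, HADHB and ETFDH, chosen by name from the gene column of the deposited probe table. Of these, 9 were found there, with 16 of the 45281 probes. HADHA names no row, so its expression was not analysed here and only its promoter was searched. Each probe was kept separately.

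C2C12 is a mouse myoblast line whose cells fuse into myotubes when they differentiate. Myoblasts received 60 nM of scramble siRNA or of an siRNA against DJ-1 (gene symbol Park7), differentiation was started 48 h afterwards, and the myotubes were collected after 4 days. RNA was hybridized to Illumina mouse arrays, 3 per group and 6 in all, and the comparison asks how gene expression differs once DJ-1 is reduced. The groups are limited as a model to 1 cell line and 1 siRNA preparation per target. No label says that the arrays of a group come from separate cultures, so p-values measure only the spread between these samples, which may be technical.

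Long-chain fatty acids enter muscle cells with the help of the membrane protein Cd36, are carried in the cytosol by the binding protein Fabp3, and cross into mitochondria as carnitine esters made by Cpt1 and unmade by Cpt2. Inside, acyl-CoA dehydrogenases of overlapping chain-length preference (Acadvl, Acadl, Acadm) open each cycle, the trifunctional protein (Hadha and Hadhb) carries long chains through the later steps, and electrons leave through electron transfer flavoprotein and its dehydrogenase Etfdh. Oxidative muscle is known for its high capacity for this pathway.

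Levels are given as normalized log2 intensity, after background correction and quantile normalization, and a difference is DJ-1 siRNA minus scramble siRNA on that scale. A probe counted as detected on an array when its detection p-value was under 0.05. The targeted gene Park7 (ILMN_2728754) had levels of 13.59, 13.37 and 13.63 under scramble siRNA and of 12.48, 12.49 and 12.15 under DJ-1 siRNA. The groups did not overlap, and the log2 fold change was -1.16 (standard error, SE, 0.14, limma adjusted p = 0.00344).

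Of the 16 member probes, 13 probes of 7 genes passed the filter of detection on at least 3 arrays and 3 were detected on no array. Among the 13, limma called 2 lower and 0 higher at an adjusted p under 0.05, which is 15.4% of them, beside 30.1% of all 17890 tested probes called in either direction, 16.5% higher and 13.6% lower. The share called lower was near that over all probes, so the count is no result about the members as a list. With p unadjusted and under 0.05, limma gave 2 lower and 0 higher, where 19.2% of all tested probes were lower and 23.6% higher. A plain Student test without moderation, run as an alternative, also gave 2 lower and 0 higher with p unadjusted, where 17.7% and 21.5% of all were, and after adjustment 0 in both directions, where 9.39% were lower and 11.1% higher. Separate groups were seen for 2 of the 13 probes (15.4%), against 48.5% of all tested probes. The median log2 fold change was -0.05 over the tested member probes and 0.05 over all tested probes. Over 14 alternatives the median of the member probes ran from -0.09 to 0.08, so its sign turned. The plot of levels by array shows each of these probes.

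**Figure D1:**
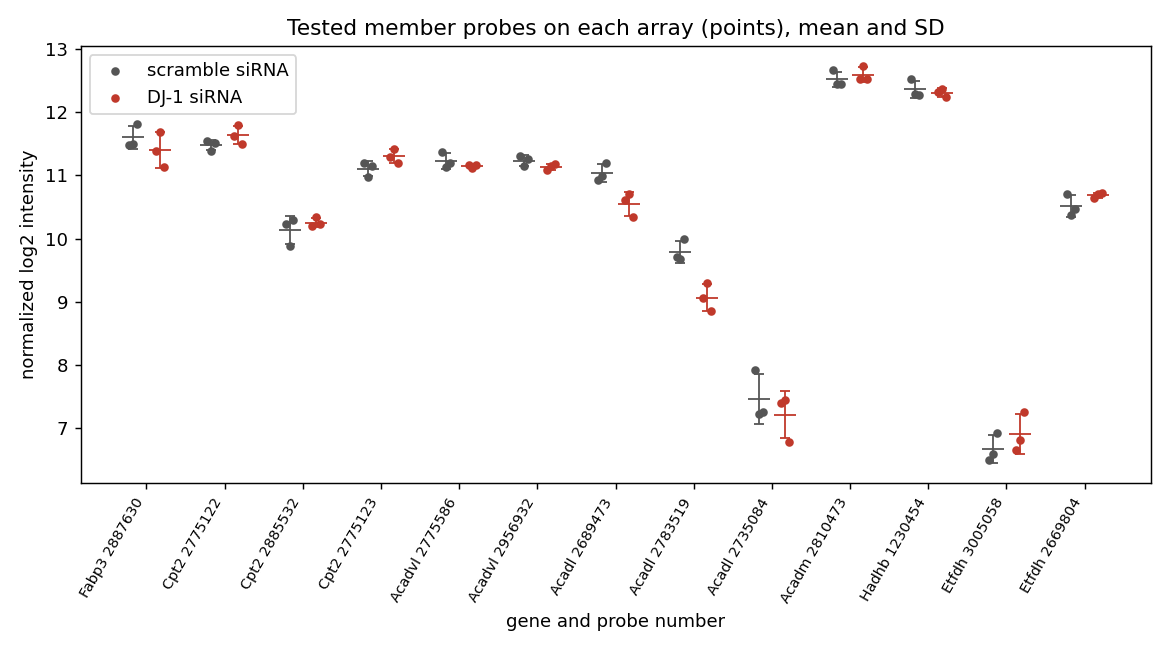
Normalized log2 intensity (vertical axis) of the 13 tested member probes (horizontal axis, by gene symbol and probe number, ordered by role), with a point per array, a bar at the mean and the SD of 3 arrays as error bar, in grey for scramble siRNA and red for DJ-1 siRNA. The groups separate for Acadl probes ILMN_2689473 and ILMN_2783519 and overlap for the other 11.

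At uptake, Cd36 (ILMN_1232470) was not detected on any of the 6 arrays, so no fold change is given. Fabp3 (ILMN_2887630), the cytosolic carrier, was detected on all of them, with levels of 11.49, 11.50 and 11.81 under scramble siRNA and 11.39, 11.69 and 11.13 under DJ-1 siRNA. The groups overlapped, with DJ-1 siRNA replicates 1 and 3 below all scramble arrays and DJ-1 siRNA replicate 2 above 2 of them. The log2 fold change was -0.20 with a 95% interval of -0.60 to 0.21 (limma adjusted p = 0.418), an interval that reaches well below 0.

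At the carnitine shuttle, both probes of Cpt1a, the outer-membrane transferase of liver and many other tissues, were not detected on any array. Cpt1b, the muscle form and not itself a member, was near the limit of detection: ILMN_1227666 was above background on 2 arrays with scramble siRNA and 1 with DJ-1 siRNA (log2 fold change -0.35, limma adjusted p = 0.282), and its other probe did not pass the filter. Over the 10 alternatives that tested ILMN_1227666 its log2 fold change ran from -0.56 to -0.08, so the size carries little weight. These arrays thus hold little information on the first transferase step. Cpt2, the inner-membrane transferase, was detected on all arrays by 3 probes, whose log2 fold changes were 0.16, 0.12 and 0.20 (limma adjusted p = 0.327, 0.534 and 0.229). Their 95% intervals reached from -0.20 at the lowest to 0.47 at the highest, and the groups overlapped for each probe. Without scramble siRNA replicate 2 the second probe, ILMN_2885532, was at -0.01 (adjusted p = 0.973).

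Of the acyl-CoA dehydrogenases, Acadl was called on 2 of its 3 probes and Acadm and Acadvl on 0 of theirs. Acadl is the long-chain enzyme. ILMN_2783519 had levels of 9.71, 9.67 and 9.99 under scramble siRNA and of 9.05, 9.29 and 8.86 under DJ-1 siRNA. The groups did not overlap, and DJ-1 siRNA replicate 3 was the lowest array. The log2 fold change was -0.72 (SE 0.15, 95% interval -1.08 to -0.36, limma adjusted p = 0.0151), which leaves 60.6% of the scramble level. ILMN_2689473 had levels of 10.93, 10.99 and 11.20 against 10.62, 10.70 and 10.34. Again all 3 DJ-1 siRNA arrays were below all 3 scramble arrays, and the log2 fold change was -0.48 (SE 0.13, limma adjusted p = 0.0367). The dim probe ILMN_2735084 had levels of 7.92, 7.22 and 7.26 against 7.40, 7.45 and 6.78. Here the groups overlapped, and the log2 fold change of -0.25 (95% interval -0.87 to 0.36, limma adjusted p = 0.488) was not told apart from 0 or from the changes of the other probes.

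The Acadl calls lie close to the threshold. For ILMN_2783519 the adjusted p was 0.0551 when DJ-1 siRNA replicate 1 was left out and 0.0510 when DJ-1 siRNA replicate 3 was. For ILMN_2689473 it was 0.0877 and 0.101 without those arrays, 0.0708 without scramble siRNA replicate 2 and 0.0889 without scramble siRNA replicate 3. This probe also lost its call with the replicate number as a block (0.0830), with background correction and a 75th percentile shift (0.0846) and with no filter on dim probes (0.0813), where ILMN_2783519 kept it (0.0447, 0.0198 and 0.0328). The direction was the same each time, with log2 fold changes of -0.83 to -0.60 for the first probe and -0.55 to -0.38 for the second over 14 alternatives, of which 11 and 6 kept the call. The adjusted p ranged from 0.000825 to 0.0551 and from 0.00275 to 0.101. In the plain Student test, which unlike the moderated test named for these arrays takes each probe's spread alone, neither passed (adjusted p = 0.0520 and 0.0780 over all probes). Before normalization the same separation is visible in the deposited intensities, as the plot of Acadl by array shows.

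**Figure D2:**
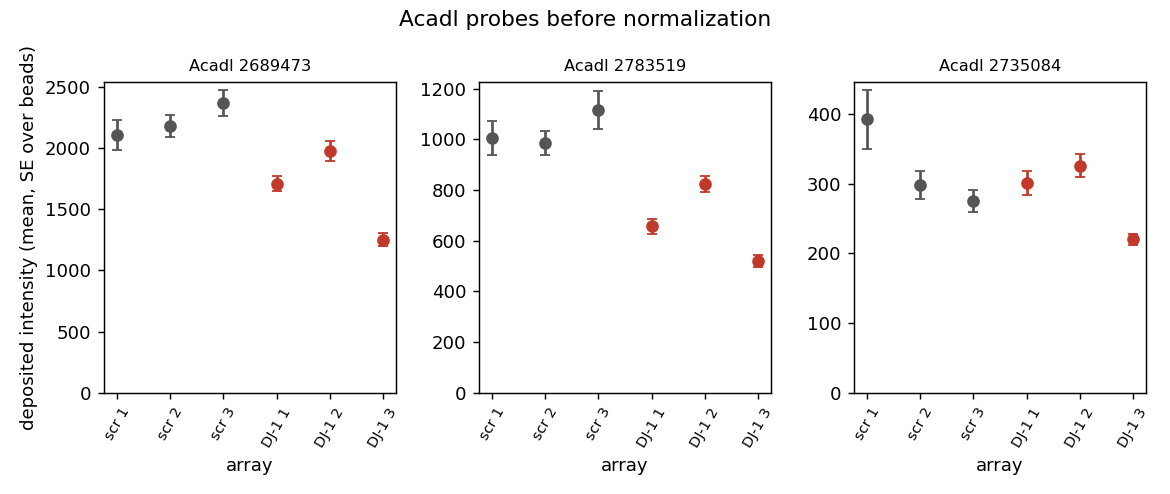
Deposited mean intensity of the 3 Acadl probes (vertical axis, arbitrary linear units starting at 0, a panel per probe) on each of the 6 arrays (horizontal axis; grey scramble siRNA, red DJ-1 siRNA), with the standard error over beads. The DJ-1 siRNA arrays lie below the scramble arrays for ILMN_2689473 and ILMN_2783519.

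Acadm, the medium-chain enzyme (ILMN_2810473), had levels of 12.66, 12.45 and 12.45 under scramble siRNA and of 12.53, 12.74 and 12.52 under DJ-1 siRNA. These overlapped, with a log2 fold change of 0.08 (95% interval -0.20 to 0.35, limma adjusted p = 0.653). Acadvl, the very-long-chain enzyme, gave -0.08 and -0.10 on its 2 probes (limma adjusted p = 0.605 and 0.472), with overlapping groups, and its sign turned on both probes with background correction and a 75th percentile shift and on 1 of them with that shift alone. Within arrays, the log2 ratio of ILMN_2783519 to Acadm differed between the groups by -0.80 and that to the mean of the Acadvl probes by -0.63. For ILMN_2689473 these differences were -0.56 and -0.40, and for the dim Acadl probe, whose groups overlapped, -0.33 and -0.17. These pairs were chosen after the values were seen, so the ratios are a description with no test, and no difference between the enzymes is shown by them.

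The stretch of 250 bases before the annotated start of Acadl and of Acadm is shown because Acadl holds the called probes and Acadm is another dehydrogenase with none. All 10 genes matched a promoter in the RefSeq table (GRCm38.p6). On both strands 12 motifs were searched: GGGCGG, a GC box; AGGTCA, the core of the sites that PPAR, RXR and estrogen-related receptors bind, with 4 longer ones that contain it, which are AAGGTCA, the longer TCAAGGTCA, and direct repeats of the core with 1 and with 5 bases between; CANNTG, an E-box, with the palindrome CACGTG as a form of it and CAGCTG as another such form; the shorter ACGTG, which lies within the first of these forms; a TATA box written TATAAA; and a CCAAT box. The capitals below mark GGGCGG in Acadl and AGGTCA in Acadm, picked after the search. The Acadl stretch (chr1:66863310-66863559, minus strand) holds GGGCGG at 4 places, all on the opposite strand, CANNTG at 1, and none of the other 10. The Acadm stretch (chr3:153944644-153944893, minus strand) holds AGGTCA at 1 place, on the opposite strand and as part of AAGGTCA, and none of the other 10.
Acadl: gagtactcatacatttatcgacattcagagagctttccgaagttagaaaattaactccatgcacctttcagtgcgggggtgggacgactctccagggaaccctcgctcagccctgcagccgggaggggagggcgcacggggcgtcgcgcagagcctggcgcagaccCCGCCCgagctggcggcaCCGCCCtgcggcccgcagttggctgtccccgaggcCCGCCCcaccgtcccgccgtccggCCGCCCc
Acadm: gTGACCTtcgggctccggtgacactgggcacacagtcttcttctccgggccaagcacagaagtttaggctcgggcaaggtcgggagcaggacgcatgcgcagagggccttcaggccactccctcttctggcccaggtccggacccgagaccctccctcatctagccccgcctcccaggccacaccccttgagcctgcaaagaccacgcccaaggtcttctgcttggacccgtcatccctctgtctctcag
GGGCGG was found in 32.7% and AGGTCA in 14% of the 32851 promoter stretches of this length, and in 6 and 4 of the 10 listed genes. The stretches of Hadha (chr5:30154981-30155230) and Hadhb (chr5:30155003-30155252) overlap, so the 10 are not all separate. The same GGGCGG site there counts for both genes among the 6. The shares of all stretches and the listed genes were 4.08% and 1 for AAGGTCA, 0.387% and 0 for TCAAGGTCA, 0.0335% and 0 for the repeat with 1 base between, 0.00913% and 0 for that with 5, 66.2% and 5 for CANNTG, 6.02% and 0 for CACGTG, 13% and 1 for CAGCTG, 12.4% and 0 for TATAAA, 16.6% and 1 for ACGTG, and 33.8% and 3 for CCAAT. A match describes the letters only.

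Downstream of the dehydrogenases, Hadhb, the beta subunit of the trifunctional protein (ILMN_1230454), had a log2 fold change of -0.05 (95% interval -0.31 to 0.21, limma adjusted p = 0.745). Its groups overlapped, and its sign turned with both 75th percentile shifts and without scramble siRNA replicate 1. Etfdh, which passes electrons to ubiquinone, gave 0.24 and 0.17 on its 2 probes (limma adjusted p = 0.383 and 0.316). Both probes overlapped between the groups. Leaving out 1 array moved the first to between 0.06 and 0.37 and the second to between 0.10 and 0.27. For the 11 member probes that were not called, the plot of fold changes shows how far each interval reaches.

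**Figure D3:**
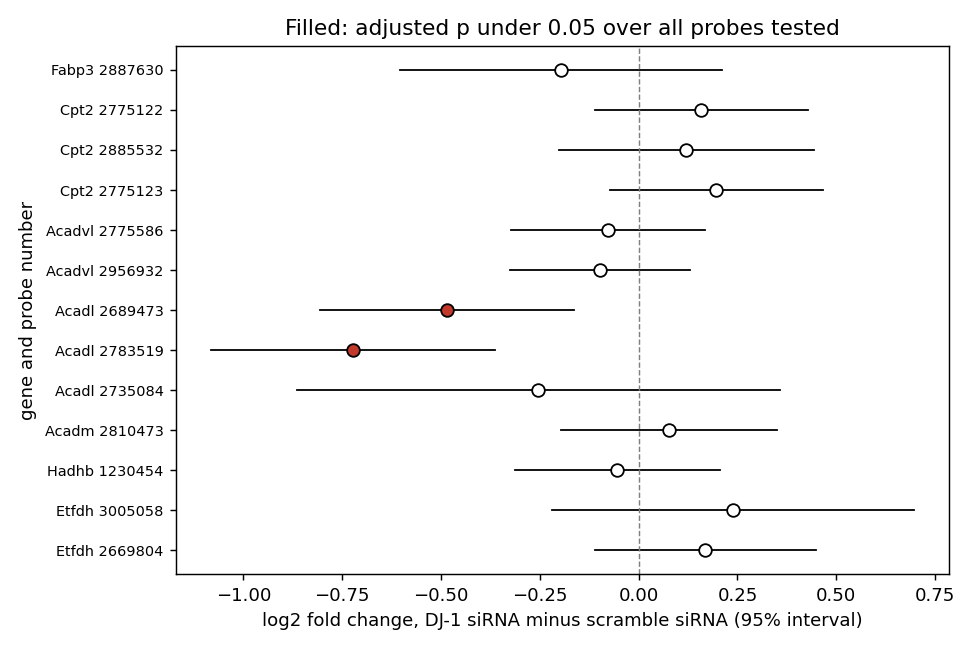
Log2 fold change, DJ-1 siRNA minus scramble siRNA (horizontal axis), of the 13 tested member probes (vertical axis), with 95% intervals from limma over 3 arrays per group. Filled points, at -0.72 and -0.48 for Acadl, had an adjusted p under 0.05, and every other interval includes 0.

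Genes around the members were taken from 7 lists with 66 genes, of which 64 had a probe. Of these lists 6 hold the pathway and its regulators and 1 holds PPAR target genes outside it. Of their 128 probes 82 were tested, and limma called 10 higher and 8 lower, that is 12.2% and 9.76%. In this setting both were below the shares over all tested probes. Without background correction more of the 82 were called higher, as the closing section gives. More of all tested probes were too (3358 and 3629 in the 2 settings, beside 2957). The median log2 fold change of the 82 probes was 0.14. Without the PPAR targets, 8 of 78 tested probes were higher and 8 lower (10.3% each). Both counts of higher probes include Rxra, whose call carries little weight, as given below. The plain Student test kept 10 of the 18 calls and not those of Acsl3, Acsl5, Lpl, Decr1, Abcd3, Pparg, Rxra and Plin2 (adjusted p = 0.0914, 0.0839, 0.111, 0.0789, 0.0596, 0.0938, 0.0579 and 0.0595). The counts over the 7 lists depended on single arrays, as did those over all tested probes. Leaving out DJ-1 siRNA replicate 1 gave 3 higher and 3 lower, and leaving out DJ-1 siRNA replicate 3 gave 3 and 2. Without scramble siRNA replicate 3 they were 5 and 4, without DJ-1 siRNA replicate 2 they were 6 higher, and without scramble siRNA replicate 2 they were 4 lower. In the same order, calls over all tested probes went from 5387 to 2444, 2612, 4074, 3965 and 3844.

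Among genes of uptake, binding and activation, 2 of 16 tested probes were higher (12.5%) and 3 were lower (18.8%). Of all tested probes 16.5% were higher and 13.6% lower. Of the acyl-CoA synthetases, which activate fatty acids, a probe of Acsl3 (0.44) and 1 of Acsl4 (ILMN_1244872, 0.33) rose, a probe of Acsl5 (-0.46) and 1 of Acsl6 (-0.47) fell, and Acsl1 was at -0.06 (adjusted p = 0.809), a sign that turned in 1 alternative. Other probes of these genes, given here and for later genes after their values were seen, were not called. Those of Acsl4 disagree, with -0.36 on ILMN_3136205 and 0.54 on ILMN_2690135 (adjusted p = 0.111 and 0.127), so no direction is given for the gene. The other tested probe of Acsl3 was detected on 1 scramble and 3 DJ-1 siRNA arrays, so no size is given for it. Those of Acsl5 and Acsl6 were at -0.30 and -0.25. Lpl, the lipoprotein lipase that frees fatty acids, fell (-0.59). The probe of Acsl6 kept its call in 5 of the 6 fits that left out 1 array, that of Acsl5 in 2, those of Lpl and Acsl3 in 1 each and that of Acsl4 in 0, and without background correction and with a 75th percentile shift the last was at 0.21 (adjusted p = 0.0731).

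In the carnitine shuttle, 1 of 9 tested probes was higher (11.1%) and 3 were lower (33.3%), where 16.5% and 13.6% of all tested probes were. This list was not tested as a whole. Crat, the carnitine acetyltransferase, fell on both its called probes (-0.47 and -0.63), and the calls were kept in 2 and in all 6 of the fits without 1 array. The second, dim probe was at -0.20 and -0.18 in the 2 settings without background correction and was not called there (adjusted p = 0.0719 and 0.114). Slc25a20, the translocase that exchanges carnitine for acylcarnitine, fell on ILMN_3138499 (-0.34, adjusted p = 0.0348) and was at 0.01 on ILMN_3061070 (adjusted p = 0.976), so its probes disagree. The carnitine importer Slc22a5 rose on 1 probe (0.29) and was not called on its others (0.28 and 0.11). The calls of Slc25a20 and Slc22a5 were kept in 1 and 0 of these 6 fits.

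Of the other mitochondrial enzymes 1 of 19 tested probes was higher and 1 was lower (5.26% each), where 16.5% and 13.6% of all tested probes were. Decr1, the dienoyl-CoA reductase needed for unsaturated chains, had levels of 6.83, 7.54 and 7.51 under scramble siRNA and of 6.22, 6.59 and 6.33 under DJ-1 siRNA. The groups did not overlap, and it fell by 0.92 (limma adjusted p = 0.0219), a call kept in 2 of the 6 fits and lost in the plain Student test, with sizes of -0.43 and -0.42 without background correction. The thiolase Acaa2 rose by 0.35 on 1 probe (kept in 1) and was at 0.21, 0.18 and 0.15 on its uncalled probes. Hadh was at 0.20 (limma adjusted p = 0.466), and between 0.002 and 0.35 when 1 array was left out. Electron transfer flavoprotein had 0 of 5 probes called by limma. With p unadjusted and under 0.05, 1 was lower (20%, beside 19.2% of all tested probes). The plain Student test also called 1 lower (20%, beside 9.39%). Etfa was at 0.11, 0.13 and 0.24 and Etfb at -0.26 and -0.20. Of 14 peroxisomal probes limma called 1 higher (7.14%, beside 16.5% of all tested probes) and 0 lower. With p unadjusted it gave 6 higher (42.9%, beside 23.6%) and 0 lower. The plain Student test gave 2 higher (14.3%, beside 11.1%) and 0 lower. A positive log2 fold change was seen for 12 of the 14 probes (85.7%, beside 54.2% of all tested probes). These 14 probes are of only 7 genes, so some genes count more than once. The list was not tested as a whole. The called one is a dim probe of the transporter Abcd3 (ILMN_2580917, 0.75, kept in 4, and 0.34 and 0.35 without background correction). The 3 other Abcd3 probes were at 0.20, 0.22 and -0.02 (adjusted p = 0.234, 0.103 and 0.919). In the plain Student test the probe at 0.22 was called (adjusted p = 0.0226) and the dim one was not (adjusted p = 0.0596), so no size is given for the gene.

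Among regulators of the pathway, 3 of 15 tested probes were higher (20%) and 1 was lower (6.67%), where 16.5% and 13.6% of all tested probes were. Esrrb, an estrogen-related receptor, had levels of 6.76, 6.76 and 6.87 under scramble siRNA and of 5.61, 5.80 and 5.33 under DJ-1 siRNA, 2 of which detected it. The groups did not overlap, and it fell by 1.22 (limma adjusted p = 0.00323). Rxrb, a partner receptor of the PPARs, rose by 1.05 on ILMN_1245492 (adjusted p = 0.00305) and was at 0.36 on ILMN_2593038 (adjusted p = 0.0702, called in 5 of 14 alternatives). Rxra was detected on 1 scramble and 3 DJ-1 siRNA arrays and so passed the filter mostly through the group in which it is higher. Its call carries little weight and no size is given for it, and of the other 14 probes of this list 2 were higher. Pparg rose by 1.06 (adjusted p = 0.0264), a call kept in 2 of the 6 fits without 1 array, while Esrrb and the first Rxrb probe kept theirs in all 6. The sizes depend on the background correction. Without it, in the 2 settings tried, Esrrb was at -0.44 and -0.43, Rxrb (ILMN_1245492) at 0.59 and 0.58, and Pparg at 0.61 and 0.60, all still called. In the plain Student test Pparg was not called (adjusted p = 0.0938), nor was Rxra. Ppard was at 0.19 and Ppargc1a at 0.27 (adjusted p = 0.186 and 0.178), and Ppara did not pass the filter.

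Of PPAR target genes outside the pathway, 2 of 4 tested probes were higher, where 16.5% of all tested probes were. Pdk4, the kinase that inhibits pyruvate dehydrogenase, had levels of 8.68, 8.62 and 8.97 under scramble siRNA and of 10.10, 10.05 and 10.03 under DJ-1 siRNA. The groups did not overlap, and the log2 fold change was 1.30 (SE 0.12, limma adjusted p = 0.00277), called under all 14 alternatives. The lipid droplet protein Plin2 rose by 0.48 (kept in 2 of the 6 fits). Ucp3 was above background on 1 array with scramble siRNA and 3 with DJ-1 siRNA. It was not called (limma adjusted p = 0.142), and no size is given for it, as for Rxra. Angptl4, the last of the 4 tested probes (ILMN_2759365), was at -0.31 (adjusted p = 0.149). The plot by list places these probes side by side.

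**Figure D4:**
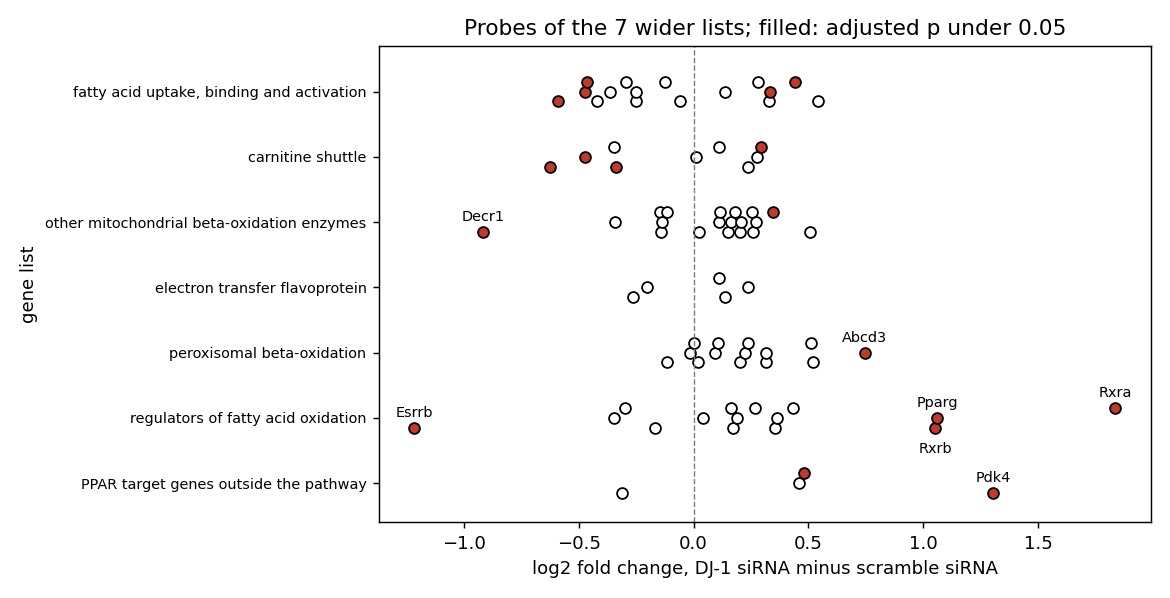
Log2 fold change, DJ-1 siRNA minus scramble siRNA (horizontal axis), of the tested probes of the 7 lists (vertical axis; the spread of points within a list has no meaning). Filled points had an adjusted p under 0.05, and gene symbols mark those beyond 0.7 in size, such as Pdk4 at 1.30 and Esrrb at -1.22, the latter at -0.44 and -0.43 without background correction. Rxra is marked too, but it was detected on 1 scramble and 3 DJ-1 siRNA arrays, so its place carries little weight.

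The label of myotubes was examined with marker genes. All 17 probes of 12 muscle differentiation genes were tested, and 10 (58.8%) were lower and 0 higher by limma, where 13.6% of all tested probes were lower and 16.5% higher (0 higher also with p unadjusted, and in the plain Student test, which called 8 lower), with a median log2 fold change of -0.52. Their summed linear level was 283250, 276800 and 276690 under scramble siRNA and 219260, 232210 and 201110 under DJ-1 siRNA, and Mylpf gave the largest share (31.4% over its 2 probes). Log2 fold changes were -1.93 and -2.19 for Myh1, -1.11, -1.03 and -1.01 for Myh8, -0.82 for Tnnc2, -0.56 for Des, -0.52 for Tnnt3 and -0.31 for Tnni2, all called by limma. In the plain Student test the Myh8 probes were not called (adjusted p = 0.0621, 0.0571 and 0.0904), and 1 of the Mylpf probes was (adjusted p = 0.0302). Of the 6 fits without 1 array, Tnni2 kept its call in 0, Tnnt3 in 5 and the third Myh8 probe in 3, while Myh1, Tnnc2 and Des kept theirs in all 6. With background correction and a 75th percentile shift Des was at -0.32 (adjusted p = 0.0554) and Tnni2 at -0.03 (adjusted p = 0.860), and with that shift alone Tnni2 was at -0.08 (adjusted p = 0.490). Myh2 was not detected on any DJ-1 siRNA array and passed the filter only through the scramble arrays. Its call carries no weight and no size is given for it, since that turned on the background correction, and of the 16 probes detected in both groups 9 were lower. Acta1 (-0.01), Ckm (-0.07), Myh3 (-0.17), Myog (0.22 and -0.11) and Mylpf (-0.19 and -0.21) were not called by limma, and the sign of each of these genes turned on at least 1 probe in at least 1 alternative. The part of these markers in the lower Acadl level was not tested, and in such bulk samples fewer cells of a type and less RNA per cell cannot be told apart.

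Markers of adipocytes, endothelial cells and macrophages were low. None of the 6 adipocyte and 7 endothelial probes passed the filter, with summed levels of 168 to 201 and 191 to 253 over the 6 arrays. Of these probes 5 and 4 were detected on no array, so the sums lie near background. Of 9 macrophage probes, with a summed level of 259 to 299, only that of Cd68 passed (limma adjusted p = 0.169). It was detected on 1 scramble and 3 DJ-1 siRNA arrays, so no size is given for it. Of the markers of proliferating myoblasts, Pax7 was detected on no array and Myf5 on 1 scramble and 1 DJ-1 siRNA array. Neither was tested. The 7 tested probes of that list are all of Ccnb1, Mki67, Cdk1 and Top2a. Among them limma called 1 lower, a probe of Ccnb1 (-0.57), and 0 higher. That is 14.3% lower, beside 13.6% of all tested probes. With p unadjusted 3 were higher (42.9%, beside 23.6%), and in the plain Student test after adjustment 1 was (14.3%, beside 11.1%). The median log2 fold change of the 7 probes was 0.23: the other Ccnb1 probe was at -0.31, Mki67 at 0.47 and 0.20, Cdk1 at 0.30, and Top2a at 0.25 and 0.23. The summed level of that list was not low, at 4716 to 5378. Over all probes, the standard error among beads had a median of 11.3, 8.30 and 8.66 under scramble siRNA and 7.17, 6.36 and 5.88 under DJ-1 siRNA, so bead noise also differed between the groups, and its part in these results was not tested.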

How the data were processed

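Illumina mouse arrays of 3 scramble siRNA and 3 DJ-1 siRNA samples were used. The authors deposited the mean intensity of each probe on each array, with no normalization or background subtraction per the file headers. The authors also deposited a detection p-value, the number of beads and the standard error over beads. In R 4.3.3 with limma 3.58.1, intensity was corrected by normexp (offset 16, background inferred from the detection p-value column), quantile normalized and put on the log2 scale. The 17890 probes with a detection p-value under 0.05 on at least 3 arrays entered limma's lmFit and eBayes, with Benjamini-Hochberg adjustment over all of them. Precision is limited by the number of arrays. Gene symbols came from RefSeq (GRCm38.p6), which 32345 probes matched. Named are all member probes, Park7, every called probe of the wider lists and 10 further genes of those lists. Members and lists were chosen with earlier results of these data known. The moderated test follows the study's description for its arrays, and a plain Student test was an alternative. The fit was tested on simulated data. In every scenario with changed probes on average more of its calls were false than the nominal share, least so for moderate changes of many probes. An adjusted p just under 0.05 is therefore weak.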

Additional observations from a re-analysis of the deposited data

How the results depend on the processing

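Park7 stayed lower and past the threshold in all 14 alternatives (log2 fold change -1.242 to -1.003). Alternatives moved the counts as follows; the cause was not tested, except that fewer arrays or more probes tested lower a count by construction. Member probes called lower were 1 (Acadl ILMN_2783519) with background correction and a 75th percentile shift, the same 1 with no filter on dim probes, 0 in the plain Student test and, fitted per gene, 1 gene (Acadl, adjusted p = 0.0447). Probes of the 7 wider lists (PPAR targets outside the pathway included) called higher were 16 without background correction under both normalizations and 4 with no filter. Those called lower were 5 with background correction and a 75th percentile shift and 4 with no filter. Changed probes in all were 3519 with no filter. Leaving out each array gave 2444 to 5302 changed probes, 0 to 2 member probes lower, 3 to 10 probes of the wider lists higher and 2 to 7 lower. No alternative called a member probe higher.

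With the replicate number as a block, 1 member probe (ILMN_2783519) was lower and 6 probes of the wider lists were higher, and 4350 probes were called in all. After normalization, same-numbered arrays deviated together only weakly (correlations of 0.05, 0.05 and 0.02), so the numbers were not taken as pairs. Every array still correlated best with its own number, as a hint from the data. The median deposited signal was also close by number. It was 162.2, 167.4 and 153.5 under scramble siRNA and 161, 166.9 and 152.3 under DJ-1 siRNA. What links the numbers was not tested. Signal over background limits the dim probes, among them Cd36, Cpt1a and Cpt1b.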
